A study of Rattus norvegicus with 18 samples.

Results

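The change examined is that between 2 and 6 hours after the last exposure to cigarette smoke, measured in whole rat lung as the ratio of smoke-exposed to air-exposed RNA. It rests on 12 of the 18 samples, 6 collected at 6 hours and 6 at 2 hours, and 3572 of 4616 named genes had a value in all 12 and were tested. At each time the 6 samples were high dose (600 µg of total particulate matter in a litre) and low dose (300 µg) after 2, 7 and 13 weeks of exposure. Rats were exposed by nose only in 2 sessions of 1 h a day with a 30 min break, on 5 days a week, to diluted smoke or, as controls, to conditioned fresh air. Each sample set the pooled lung RNA of 4 smoke-exposed rats, labelled with Cy5, against that of 4 air-exposed rats collected at the same weeks and hours, labelled with Cy3. Every condition was thus 1 pool, the high-dose and low-dose samples of a combination shared their air pool, and the sources used here give no strain, sex or age.

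A value is the deposited log2 ratio of the smoke pool to the air pool, called the level against air below. For each duration of exposure the high-dose and low-dose levels were averaged, and the average at 2 hours was subtracted from that at 6 hours. The change of a gene is the mean of these 3 differences, given with its standard error (SE) from limma, a moderated linear model fitted across all genes. A gene passed at a Benjamini-Hochberg adjusted p under 0.05. A constant dye effect cancels in the difference. A difference in the ratio may lie in the smoke-exposed or in the air-exposed lungs of either time, and these cannot be told apart from ratios. The 12 samples had medians within 0.01 of 0 and values for 3919 to 4583 named genes, and their number limits the precision.

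Several regulatory systems are known to act in the lung within hours of smoke. The aryl hydrocarbon receptor (AhR) binds polycyclic aromatic hydrocarbons of tobacco smoke and switches on cytochrome P450 and other detoxifying enzymes, while NRF2 switches on antioxidant enzymes when electrophiles modify its inhibitor KEAP1. The circadian clock is a loop in which BMAL1 and CLOCK drive the genes of their own repressors (the PER, CRY and REV-ERB proteins) and of output factors such as DBP and TEF. Neutrophils carry S100A8 and S100A9, calcium-binding proteins that are released as danger signals, and the unfolded protein response raises chaperones of the endoplasmic reticulum when misfolded proteins accumulate there.

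Among the genes that passed were the detoxifying and antioxidant enzymes Aldh3a1, Cyp1a1, Nqo1, Gclc and Hmox1. In their means these stood above air at both times and closer to it at 6 hours. The means of the enzymes Sult1a1 and Adh1c were below air at 6 hours and above it at 2 hours, and their samples overlapped between the times. The clock gene Bmal1 rose where Dbp, Nr1d2 and Tef fell. Of 7 tested neutrophil and mast cell markers S100a8, S100a9 and Fcnb rose, and the others did not pass. The chaperone Hspa5 rose, while Herpud1, from the same list of stress genes, fell. Of the 3572 genes, 33 passed (0.924%), 9 of them higher at 6 hours (0.252%) and 24 lower (0.672%), where 382 had an unadjusted p under 0.05. The median change of all genes was -0.01, and 48.4% of them had a change above 0. The change was at least 1 on the log2 scale for 11 genes. Of the 33, 32 had the same sign at both doses and all 3 durations (6 of 6 differences), and S100a9 had it in 5 of 6. Some differences counted here were close to 0, such as the low-dose ones of Hmox1 (-0.07 at 7 weeks, -0.02 at 13 weeks) and Gja5 (0.01 at 7 weeks). Of all genes tested, 321 (8.99%) had 1 sign in 6 of 6, and the 33 were called on these same differences. The 6 samples at 6 hours and the 6 at 2 hours did not overlap for 21 of the 33, and for 81 of all genes tested (2.27%). Among the 24 falls, 12 genes were above air at both times and 12 were below air at 6 hours and above it at 2 hours. Of the 9 rises, 6 were above air at 6 hours and below it at 2 hours, 2 were above air at both times, and Spon2 was below at both.

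The count depended on single durations and samples. With 1 duration left out it was 39 (2 weeks), 2 (7 weeks, Aldh3a1 and Dbp) and 6 (13 weeks), where only 2 differences remained per gene. Leaving out single samples was added after the data were seen, and the count then was 11 without the low-dose 13 week sample at 6 hours and 21 without the high-dose 7 week sample at 2 hours. With any 1 of the 12 samples left out, the genes Aldh3a1, Dbp, Ndrg4, Nqo1, Nr1d2, Bmal1, S100a8, Fcnb and G0s2 remained called, 9 of the 33. An exact sign-flip permutation test of 3 differences cannot go below p = 0.25.

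**Figure D1:**
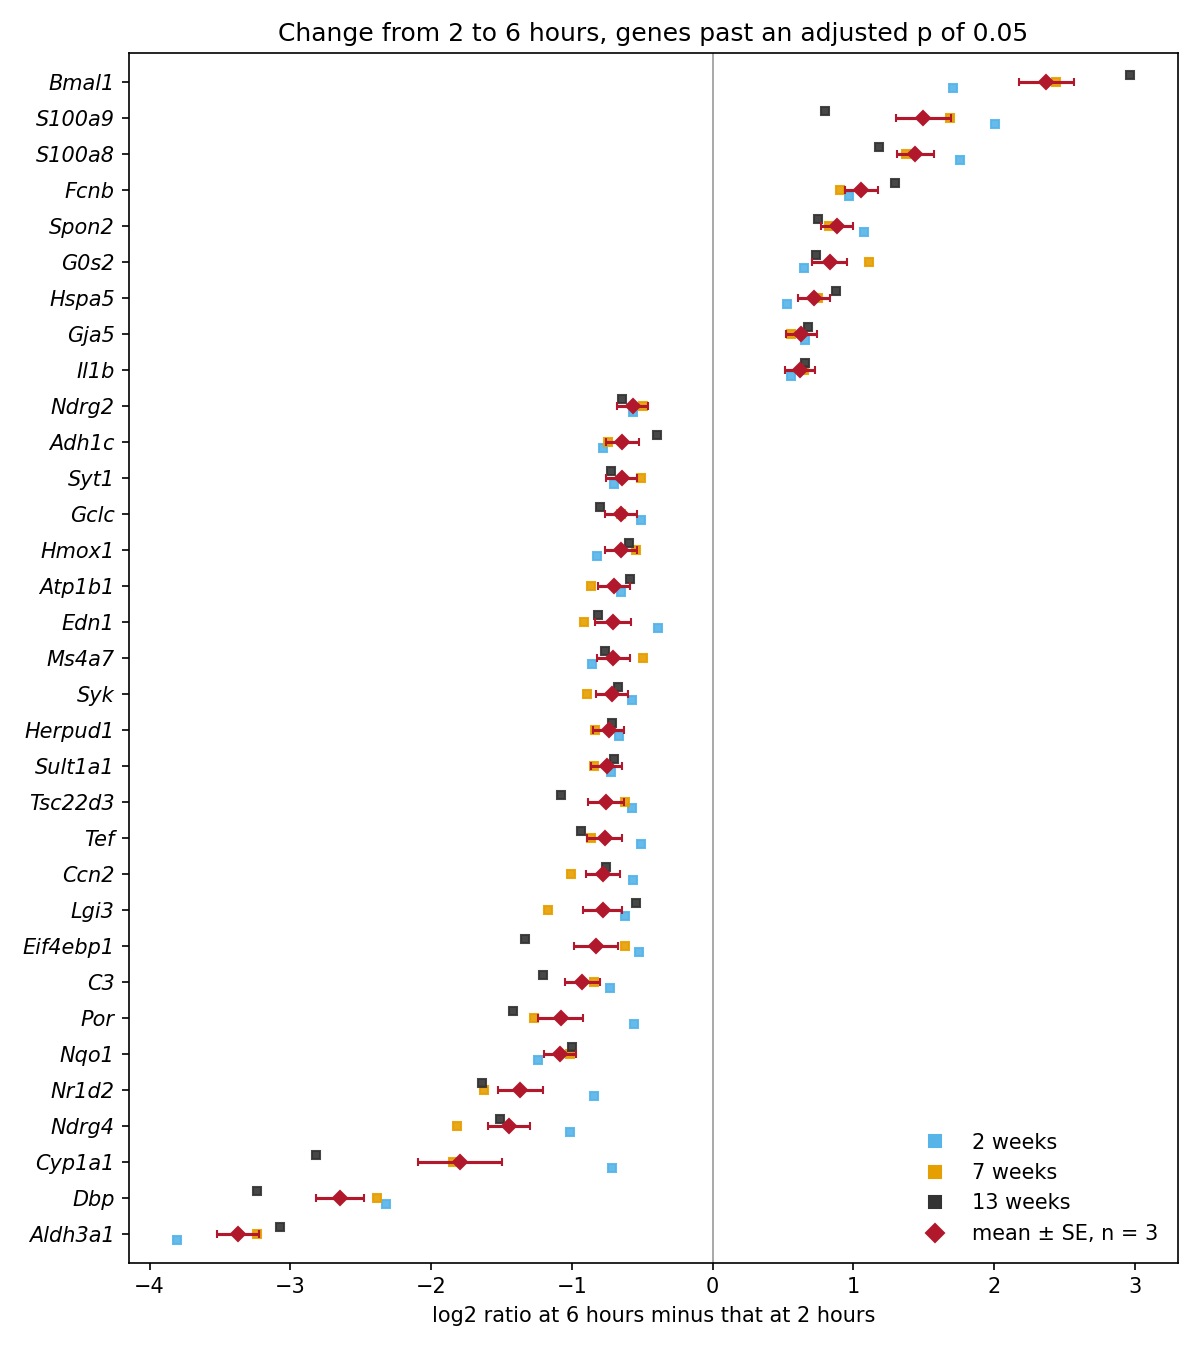
Change from 2 to 6 hours (x axis, log2 ratio at 6 hours minus that at 2 hours) of the 33 genes that passed, 1 row per gene. Squares are the differences at 2, 7 and 13 weeks, each averaged over the high and low dose, and diamonds with bars are the mean ± SE (n = 3). Bmal1 stands at the top with 2.37 and Aldh3a1 at the bottom with -3.37.

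Of 5 tested AhR genes, 3 fell and 0 rose, Aldh3a1, Cyp1a1 and Nqo1, and all 5 had a change below 0 (median -1.08, against -0.01 over all genes). Aldh3a1, an aldehyde dehydrogenase that oxidises aromatic and lipid aldehydes, had levels of 1.70 to 2.25 (median 1.99) in the 6 samples at 6 hours, against 4.84 to 6.23 (median 5.14) in the 6 samples at 2 hours. The groups lay far apart, with the lowest sample at 2 hours well above the highest at 6 hours. In the means Aldh3a1 was 3.87-fold above air at 6 hours and 40.1-fold above air at 2 hours. Its change was -3.37 ± 0.15 (n = 3, limma adjusted p = 3.4e-06), the largest of all genes tested.

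Cyp1a1, the cytochrome P450 that oxidises polycyclic aromatic hydrocarbons, had levels of 3.32 to 4.53 (median 4.01) at 6 hours, against 4.91 to 6.37 (median 5.89) at 2 hours. The groups did not overlap, and every sample was far above air, 15.4-fold in the mean at 6 hours and 53.4-fold at 2 hours. The change was -1.79 ± 0.30 (limma adjusted p = 0.024) and differed between durations, with -0.72 at 2 weeks, -1.85 at 7 weeks and -2.82 at 13 weeks. Whether it depended on duration was not tested. The call was lost when the 7 week samples (adjusted p = 0.43) or the 13 week samples (adjusted p = 0.25) were left out, and with single samples left out the adjusted p reached 0.10. Under quantile normalization, which sets the highest ranks of all samples to the same values, the change was 0.32 (limma adjusted p = 0.649).

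Nqo1, the quinone reductase that both AhR and NRF2 are known to switch on, had levels of 1.48 to 1.73 (median 1.64) at 6 hours, against 2.29 to 3.05 (median 2.77) at 2 hours. The groups did not overlap and lay within a narrow band at 6 hours. Its change was -1.08 ± 0.11 (limma adjusted p = 0.0018), with -1.24, -1.01 and -1.0 at 2, 7 and 13 weeks. The other AhR genes did not pass, Cyp1b1 with a change of -0.29 and the glucuronosyltransferase Ugt1a6 with -0.22. In their means both stood above air by less than Nqo1 did, Cyp1b1 at 0.02 at 6 hours and 0.32 at 2 hours, and Ugt1a6 at 0.43 and 0.65. The receptor Ahr, its partner Arnt and Cyp1a2 lacked a value in at least 1 sample and were not tested.

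**Figure D2:**
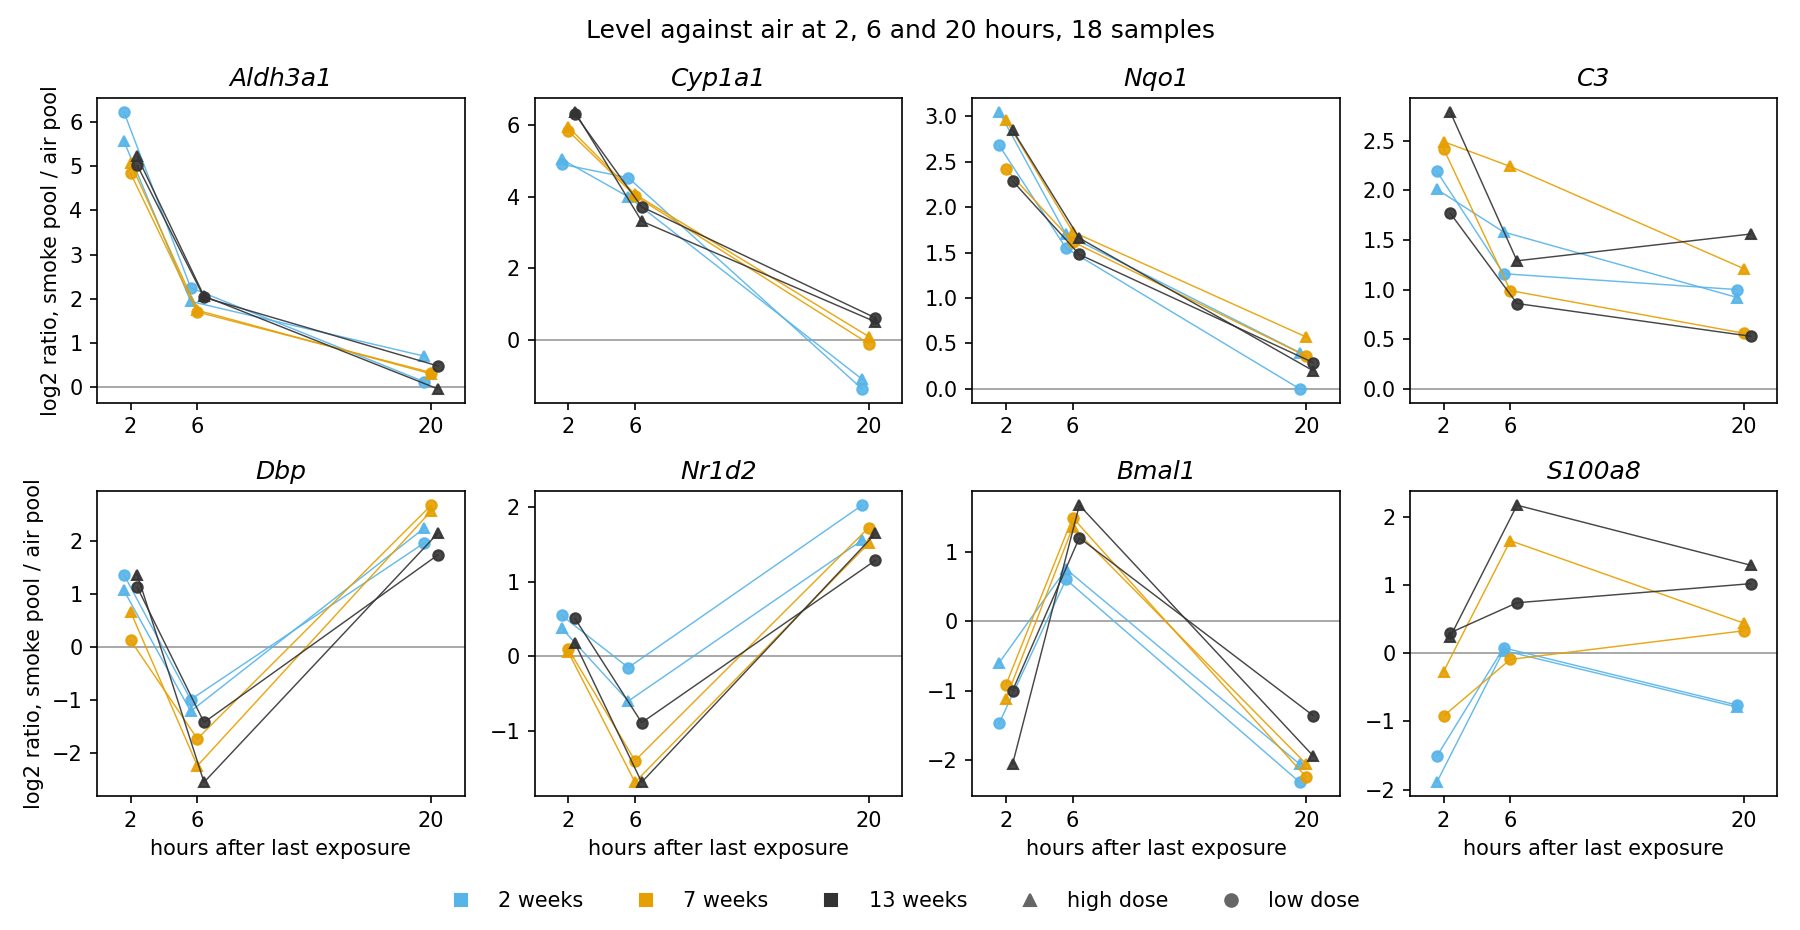
Level against air (y axis, log2 ratio of smoke pool to air pool) of 8 genes at 2, 6 and 20 hours after the last exposure (x axis, drawn to scale, with points of different durations set slightly apart). Each point is 1 sample, coloured by duration and shaped by dose, and lines join samples of 1 duration and dose. Aldh3a1, Cyp1a1 and Nqo1 step down towards air, Dbp and Nr1d2 dip below air at 6 hours alone, and Bmal1 peaks above air at 6 hours alone.

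Of 20 tested NRF2 and oxidative stress genes, 3 fell and 0 rose, Nqo1, Gclc and Hmox1, with a median change of -0.22. Gclc, the catalytic subunit of the first enzyme of glutathione synthesis, had levels of 0.01 to 0.44 (median 0.35) at 6 hours, against 0.65 to 1.45 (median 0.84) at 2 hours. The groups did not overlap, and the change was -0.65 ± 0.11 (limma adjusted p = 0.026). Haem oxygenase Hmox1, which breaks down haem, had levels of -0.03 to 0.86 (median 0.35) at 6 hours, against 0.55 to 1.88 (median 0.90) at 2 hours. These groups overlapped, and the change was also -0.65 ± 0.11 (adjusted p = 0.026). In both genes leaving out 1 sample ended the call, with an adjusted p of up to 0.12 for Gclc and up to 0.56 for Hmox1. Some members, named after their values were seen, did not pass. They were the modifier subunit Gclm (-0.70 ± 0.15, limma adjusted p = 0.071), Nfe2l2, the gene of NRF2 itself (-0.54 ± 0.14, adjusted p = 0.15), and the thioredoxin reductase Txnrd1 (-0.51 ± 0.12, adjusted p = 0.13). Each of these had 1 sign in 6 of 6 differences. The superoxide dismutases Sod1 and Sod2 were at 0.14 and 0.16, and the catalase Cat at -0.01.

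Among 16 other genes of xenobiotic metabolism, 2 fell and 0 rose (median change -0.08). Por, the reductase that passes electrons to all microsomal cytochrome P450 enzymes, had levels of -0.60 to 0.11 (median -0.28) at 6 hours, against 0.49 to 1.16 (median 0.78) at 2 hours. The groups did not overlap, and all samples at 2 hours were above air. The change of Por was -1.08 ± 0.16 (limma adjusted p = 0.015), and that of the sulfotransferase Sult1a1 was -0.75 ± 0.11 (adjusted p = 0.014), whose groups overlapped. Adh1c, an alcohol dehydrogenase outside these lists, fell by 0.64 ± 0.12 (limma adjusted p = 0.043). Its groups also overlapped, and with single samples left out its adjusted p reached 0.10. The call of Adh1c held in 8 of 25 alternative fits. Of 12 glutathione S-transferases 0 passed limma, 1 had an unadjusted p under 0.05, and the list median was -0.08 (lowest Gstm5, -0.29).

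Of 9 tested clock genes, 1 rose and 3 fell (median change -0.13). Bmal1, the gene of the activator, had levels of 0.60 to 1.67 (median 1.28) at 6 hours, against -2.06 to -0.60 (median -1.06) at 2 hours. Every sample at 6 hours was above air and every sample at 2 hours below it. Its change of 2.37 ± 0.20 (limma adjusted p = 0.00048) was the largest rise. Without the 7 week samples its adjusted p was 0.10.

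Dbp, a transcription factor that BMAL1 and CLOCK are known to drive, had levels of -2.56 to -1.0 (median -1.58) at 6 hours, against 0.12 to 1.36 (median 1.09) at 2 hours. The signs were opposite to those of Bmal1 in all 12 samples. The change of Dbp was -2.65 ± 0.17 (limma adjusted p = 7.2e-05). Nr1d2, which encodes the repressor REV-ERBβ, had levels of -1.69 to -0.15 (median -1.15) at 6 hours, against 0.06 to 0.55 (median 0.28) at 2 hours, again on opposite sides of air. Its change was -1.37 ± 0.16 (adjusted p = 0.0038). Tef, a relative of Dbp, changed by -0.77 ± 0.12 (adjusted p = 0.021). Bhlhe40, a further repressor in the loop named after its value was seen, did not pass (-0.53 ± 0.13, adjusted p = 0.13).

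Nr1d1, the paralogue of Nr1d2 that encodes REV-ERBα, did not pass. Its levels were -0.89 to -0.22 (median -0.38) at 6 hours, against -0.88 to -0.43 (median -0.68) at 2 hours, and the groups overlapped. The change was 0.23 ± 0.12 (limma adjusted p = 0.53), with 0.15 and 0.32 at its 2 probes. The 3' end of Nr1d1 overlaps that of Thra on the other strand, and Thra stood at -0.49 at 6 hours and -0.55 at 2 hours (change 0.07 ± 0.14). The kinases Csnk1d and Csnk1e were at -0.13 and -0.02 and the cell cycle kinase Wee1 at 0.06. Cry1 and Nfil3 lacked a value in at least 1 sample, and Per1 and Per2 were not analysed here.

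The promoters of 3 of these genes are shown because BMAL1 and CLOCK are known to bind the E-box CACGTG, and REV-ERB and ROR proteins to bind sites that hold AGGTCA. The sequences are the 250 bases before each gene's start in RefSeq (assembly GRCr8), read on the gene's strand, and capitals mark the searched motif, found on either strand. Bmal1 lies at chr1:176766078-176766327 (plus strand), Nr1d2 at chr15:9954784-9955033 (plus strand) and Tef at chr7:115206577-115206826 (plus strand).
Bmal1: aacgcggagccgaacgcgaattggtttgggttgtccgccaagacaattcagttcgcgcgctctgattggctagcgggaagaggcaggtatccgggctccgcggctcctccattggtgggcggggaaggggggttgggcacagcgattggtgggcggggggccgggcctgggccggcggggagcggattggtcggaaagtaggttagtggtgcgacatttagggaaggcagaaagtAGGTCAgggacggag
Nr1d2: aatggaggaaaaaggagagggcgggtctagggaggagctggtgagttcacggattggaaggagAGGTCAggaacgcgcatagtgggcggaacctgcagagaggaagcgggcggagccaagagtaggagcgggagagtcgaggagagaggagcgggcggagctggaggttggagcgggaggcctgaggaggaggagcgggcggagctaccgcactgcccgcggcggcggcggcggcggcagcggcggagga
Tef: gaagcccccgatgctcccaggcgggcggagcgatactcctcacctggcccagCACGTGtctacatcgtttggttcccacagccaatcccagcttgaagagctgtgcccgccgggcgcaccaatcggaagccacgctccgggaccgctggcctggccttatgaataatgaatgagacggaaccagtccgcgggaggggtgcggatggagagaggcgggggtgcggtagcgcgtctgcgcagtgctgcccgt
AGGTCA starts at position -15 in Bmal1 and at -187 in Nr1d2, and CACGTG starts at -198 in Tef. Of the 9 tested clock genes 6 had a promoter in this table, 2 with AGGTCA (Bmal1 and Nr1d2) and 2 with CACGTG (Tef and Bhlhe40). Over all 24206 promoters of this length, 13.5% held AGGTCA or its complement and 5.86% held CACGTG, so such matches are common and describe the letters alone. For AhR the core GCGTG, with which the receptor's binding site is written, was in all 3 AhR gene promoters found (Cyp1b1, Nqo1 and Ugt1a6) and in 27.8% of all promoters.

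Of 12 tested glucocorticoid-responsive genes, 1 fell and 0 rose (median change -0.14, against -0.01 over all genes). Tsc22d3, which encodes the glucocorticoid-induced leucine zipper, had levels of -0.56 to 0.40 (median 0.01) at 6 hours, against 0.41 to 0.90 (median 0.71) at 2 hours. The groups met without overlapping, and the change was -0.76 ± 0.13 (limma adjusted p = 0.026). Fkbp5, a co-chaperone of the glucocorticoid receptor, did not pass (-0.66 ± 0.15, adjusted p = 0.11). None of 16 immediate early genes passed, 6 had a lower value and 0 a higher value at an unadjusted p under 0.05, and the median was -0.13. The lowest were the AP-1 member Fosl1 (-0.49 ± 0.12, limma adjusted p = 0.12) and Ier3 (-0.48 ± 0.13, adjusted p = 0.15). Fos, Jun and the phosphatase gene Dusp1 were at -0.07, 0.12 and -0.30.

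Of 7 tested neutrophil and mast cell markers, 3 rose and 0 fell, S100a8, S100a9 and Fcnb (median change of the list 0.14). S100a8 had levels of -0.09 to 2.17 (median 0.41) at 6 hours, against -1.89 to 0.30 (median -0.60) at 2 hours. S100a9 had levels of 0.26 to 3.32 (median 1.22) at 6 hours, against -1.47 to 1.68 (median 0.30) at 2 hours. In both genes the groups overlapped, and levels at both times also differed between durations, lowest at 2 weeks and highest at 13 weeks in the dose means. The changes within durations were 1.44 ± 0.13 for S100a8 (limma adjusted p = 0.00082) and 1.5 ± 0.20 for S100a9 (adjusted p = 0.0077). The call of S100a9 was lost when the 7 week samples were left out (adjusted p = 0.33), and with single samples left out its adjusted p reached 0.11.

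Fcnb, a ficolin of the lectin pathway made by bone marrow myeloid cells and neutrophils in rodents, had levels of -0.06 to 0.80 (median 0.16) at 6 hours, against -1.35 to -0.54 (median -0.69) at 2 hours. The groups did not overlap. The change was 1.06 ± 0.12 (limma adjusted p = 0.0032), with 0.80 and 1.32 at its 2 probes. The other 4 markers did not pass, the resistin-like gene Retnlg (-0.15), myeloperoxidase Mpo (-0.14), the mast cell protease Mcpt1 (-0.03) and the chemokine receptor Cxcr2 (0.14). The mean level of the 7 markers was 0.01 to 0.94 in the samples at 6 hours, against -0.72 to 0.41 at 2 hours. That mean includes S100a8, S100a9 and Fcnb, and the median change of the 7 was 0.14. In whole lung, more cells of a type and more RNA per cell cannot be told apart.

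Of 17 cytokines and receptors, 1 rose and 0 fell (median 0.07). Il1b, the precursor of interleukin-1β, had levels of 0.10 to 1.22 (median 0.81) at 6 hours, against -0.22 to 0.52 (median 0.15) at 2 hours. The groups overlapped. Averaged over the doses, the differences were 0.56, 0.65 and 0.66 at 2, 7 and 13 weeks (change 0.62 ± 0.11, limma adjusted p = 0.026). The single doses were less alike, with 0.27, 1.11 and 0.70 at the high dose and 0.85, 0.19 and 0.61 at the low dose. With single samples left out the adjusted p of Il1b reached 0.11. Of 8 chemokines 0 passed limma and 0 had an unadjusted p under 0.05. The neutrophil attractant Cxcl1 was well above air at both times, with 1.59 at 6 hours and 1.48 at 2 hours (change 0.11 ± 0.12, adjusted p = 0.80), and Ccl2 had a change of 0.14 ± 0.11. Of 11 genes of NF-kB and cytokine feedback 0 passed limma and 3 had an unadjusted p under 0.05, among them Socs1, an inhibitor of cytokine signalling (0.71 ± 0.16, adjusted p = 0.094). Tnf and Il6 lacked values and were not tested.

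Of 16 acute phase and complement genes, 1 fell and 0 rose (median -0.02). Complement C3, the central protein of the cascade, had levels of 0.86 to 2.24 (median 1.23) at 6 hours, against 1.77 to 2.79 (median 2.31) at 2 hours. The groups overlapped through the high-dose 7 week sample at 6 hours, and the change was -0.93 ± 0.12 (limma adjusted p = 0.0089, and up to 0.12 without 1 sample). Lcn2, a siderophore-binding acute phase protein, was high at both times, with means of 2.16 at 6 hours and 2.19 at 2 hours (change -0.03 ± 0.12).

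Of 17 macrophage markers 0 passed limma, and 10 had a change above 0 (median 0.06). At an unadjusted p under 0.05, 2 were higher, Aif1 (0.32) and Adgre1 (0.29), and 1 was lower. Spp1, which encodes osteopontin, had the largest change (-0.95 ± 0.27, adjusted p = 0.19), most of it at 13 weeks (-2.04, against -0.47 at 2 weeks and -0.34 at 7 weeks). The mean level of these markers was 0.32 to 0.55 at 6 hours and 0.25 to 0.55 at 2 hours. Outside the list, Ms4a7, a membrane protein of monocytes and macrophages, fell by 0.70 ± 0.12 (adjusted p = 0.024), and the kinase Syk, which signals from immune receptors, by 0.71 ± 0.11 (adjusted p = 0.021). Of 16 lymphocyte markers 0 passed limma, with 2 higher and 0 lower at an unadjusted p under 0.05 (median 0.14).

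Of 27 genes of heat shock and the unfolded protein response, 1 rose and 1 fell, and 18 had a change above 0 (median 0.18, against -0.01 over all genes). Hspa5, the chaperone BiP of the endoplasmic reticulum, had levels of 0.03 to 0.88 (median 0.36) at 6 hours, against -0.56 to -0.09 (median -0.20) at 2 hours. All samples at 6 hours were above air and all at 2 hours below it. The change was 0.72 ± 0.12 (limma adjusted p = 0.021, and up to 0.08 without 1 sample). Herpud1, which serves the breakdown of misfolded proteins at that membrane, went the other way, with levels of -0.60 to -0.06 (median -0.40) at 6 hours, against 0.24 to 0.54 (median 0.38) at 2 hours. These groups also lay on opposite sides of air (change -0.74 ± 0.11, adjusted p = 0.015, and up to 0.06 without 1 sample). At an unadjusted p under 0.05, 8 members were higher and 2 lower. Among those named after their values were seen were the disulfide isomerase Pdia4 (0.50 ± 0.11, limma adjusted p = 0.10) and Hsp90b1, the chaperone GRP94 (0.48 ± 0.11, adjusted p = 0.098). The cytosolic chaperone Hspa1a stood at -0.43 ± 0.11 (adjusted p = 0.15) and the stress factors Ddit3 and Atf6 at -0.07 and -0.20.

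The promoter of Hspa5 is shown with the endoplasmic reticulum stress response element, which the factors ATF6 and XBP1 are known to act on, in capitals. It lies at chr3:38452766-38453015 (plus strand, GRCr8, RefSeq).
Hspa5: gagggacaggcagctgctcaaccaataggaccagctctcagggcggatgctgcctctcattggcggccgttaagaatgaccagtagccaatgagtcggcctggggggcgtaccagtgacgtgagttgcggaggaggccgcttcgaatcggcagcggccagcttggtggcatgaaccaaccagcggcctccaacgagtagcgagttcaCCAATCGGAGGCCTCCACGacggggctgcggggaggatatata
The element starts at position -43. Of 23 tested members of the list with a promoter in the table, 5 held it on either strand (Hspa5, Hsp90b1, Xbp1, Calr and Canx), and 18 of all 24206 promoters did (0.074%). Of these 5 genes Hspa5 alone passed, and Xbp1, Calr and Canx had changes of 0.20, 0.23 and 0.14.

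**Figure D3:**
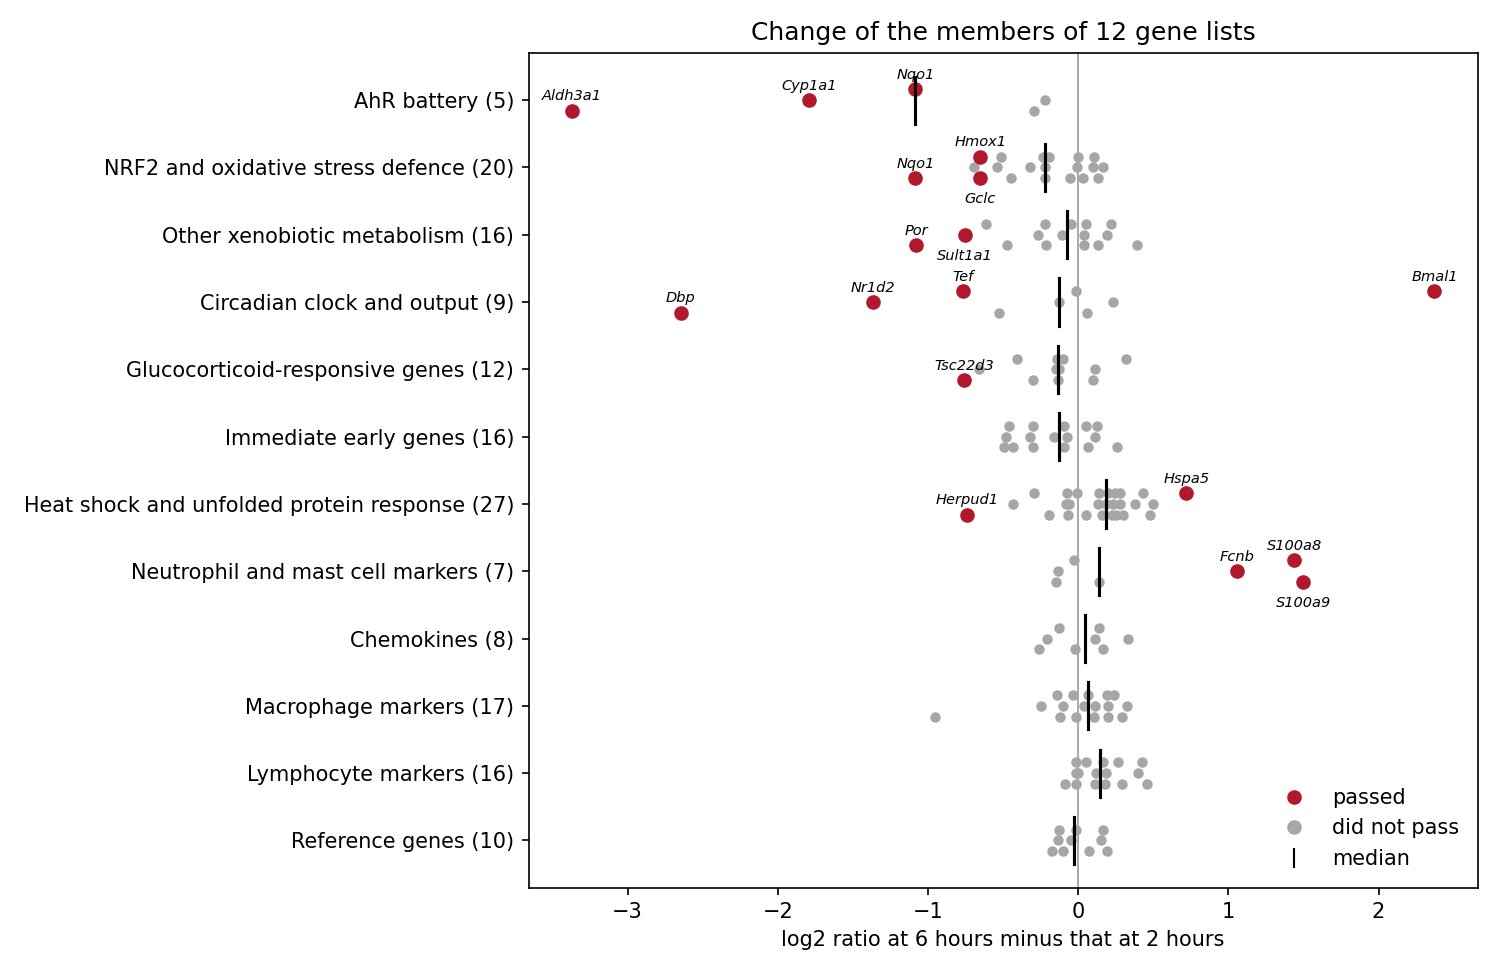
Change from 2 to 6 hours (x axis, log2) of each tested member of 12 gene lists (rows, number tested in brackets). Red points passed and are named, grey points did not, and black bars are the list medians, from -1.08 for the AhR battery to 0.18 for heat shock and the unfolded protein response.

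Single genes of the matrix and of vessels passed. Of 24 matrix and protease genes 1 rose and 1 fell (median -0.11). Spon2, a secreted matrix protein, was below air in all 12 samples, with levels of -1.0 to -0.29 (median -0.70) at 6 hours, against -1.74 to -1.0 (median -1.65) at 2 hours. The groups met in 1 value, and the change was 0.88 ± 0.11 (limma adjusted p = 0.0077). Ccn2, a matrix-associated growth factor, fell to -0.23 to 0.23 (median 0.13) at 6 hours, against 0.44 to 1.10 (median 0.83) at 2 hours, without overlap (change -0.78 ± 0.12, adjusted p = 0.020). Of 17 endothelial and smooth muscle genes 1 fell, Edn1, the precursor of the vasoconstrictor endothelin-1 (-0.70 ± 0.13, adjusted p = 0.038), and 0 rose (median -0.03). Outside this list, Gja5, the gap junction protein connexin 40, rose by 0.63 ± 0.11 (adjusted p = 0.026). Gja1, connexin 43, had a larger change but did not pass (0.90 ± 0.18, adjusted p = 0.066), and its 2 probes were at 1.14 and 0.70.

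Further genes passed outside the lists. Ndrg4, of the N-myc downstream-regulated family, had levels of 0.01 to 0.63 (median 0.18) at 6 hours, against 1.41 to 1.95 (median 1.76) at 2 hours. The groups lay far apart (change -1.45 ± 0.15, limma adjusted p = 0.0018), and its relative Ndrg2 fell by 0.57 ± 0.11 (adjusted p = 0.045). Eif4ebp1, a repressor of translation initiation, fell by 0.83 ± 0.16 (adjusted p = 0.045), and the sodium pump subunit Atp1b1 by 0.70 ± 0.11 (adjusted p = 0.021). The secreted protein Lgi3 and the calcium sensor Syt1 of vesicle release fell by 0.78 ± 0.14 and 0.64 ± 0.11. G0s2, an inhibitor of the lipase ATGL, was at 0.14 to 0.60 (median 0.32) at 6 hours, against -0.71 to -0.38 (median -0.47) at 2 hours, on opposite sides of air (change 0.83 ± 0.12, adjusted p = 0.015). Other rises had 1 sign in 6 of 6 differences but did not pass. Besides Gja1, those with the smallest p were the integrin Itgb7, the sheddase Adam17, Antxr1, the collagen chaperone Serpinh1, Tfdp1 and the kinase Prkcd. The changes of these named genes were 0.50 to 0.54, with limma adjusted p from 0.060 to 0.094.

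In all other lists 0 genes passed limma. These were 9 alveolar and 5 airway epithelial markers (medians -0.09 and -0.08), 25 genes of p53 and apoptosis, 19 of the cell cycle, 19 of lipid and 18 of glucose metabolism, 11 of the interferon response, 12 ribosomal, 21 respiratory chain and 10 reference genes, and the metallothionein Mt1 (-0.10). Their medians lay between -0.10 and 0.10. An unadjusted p under 0.05 was found for 3 genes of p53 and apoptosis, 3 of the cell cycle, 2 of lipid and 2 of glucose metabolism and 1 of the interferon response. Over all genes tested 382 of 3572 had such a p, and these counts are not read as a result about the lists. The surfactant gene Sftpc and the club cell gene Scgb1a1 were not analysed here. Markers of blood and of striated muscle were measured as well. All 4 blood and platelet markers had a lower level at 6 hours, 0 passing limma and 2 with an unadjusted p under 0.05 (median change -0.31, Hbb -0.55 ± 0.13, limma adjusted p = 0.13). Their mean level was -0.44 to 0.02 at 6 hours and -0.04 to 0.54 at 2 hours. Of 10 striated muscle markers 9 had a change below 0 (median -0.13), 0 passed limma and 2 had an unadjusted p under 0.05, and the atrial peptide gene Nppa was at 2.16 in the high-dose 2 week sample at 2 hours, against at most 0.76 in the other 5 at that time. The median change of the muscle list was -0.55 at 2 weeks, 0.35 at 7 weeks and -0.07 at 13 weeks, and so had no single direction. The part of blood and muscle in the changes above was not tested.

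Whether the change from 2 to 6 hours depended on dose was tested by the 3 differences between the high-dose and the low-dose change, in which the shared air pool cancels. Of 3572 genes 1 passed (0.0280%), S100a9, and 207 had an unadjusted p under 0.05. The change of S100a9 was 2.40, 2.49 and 1.64 at the high dose at 2, 7 and 13 weeks, against 1.62, 0.88 and -0.04 at the low dose. The high dose exceeded the low dose at each duration, by 1.36 ± 0.20 (n = 3, limma adjusted p = 0.044). With 2 or with 7 weeks left out 0 genes passed, which ended the call, and with 13 weeks left out 12 did. S100a8, whose product pairs with that of S100a9, had changes of 1.93, 1.92 and 1.93 at the high dose, against 1.59, 0.83 and 0.44 at the low dose, and the difference did not pass (0.97 ± 0.21, adjusted p = 0.43).

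The next smallest p belonged to the interferon regulator Irf7, with a change of -0.44 at the high dose and 0.68 at the low dose (difference -1.12 ± 0.19, limma adjusted p = 0.11), and to Ramp3, which partners receptors of the adrenomedullin family, with -1.09 and -0.13 (difference -0.96 ± 0.18, adjusted p = 0.13). For the leading AhR enzymes no difference passed. Aldh3a1 changed by -3.37 at both doses (difference 0.00 ± 0.18) and Cyp1a1 by -1.99 at the high dose and -1.59 at the low dose (difference -0.40 ± 0.18, adjusted p = 0.83). Hmox1 changed by -1.02 at the high dose and -0.28 at the low dose, and this difference did not pass (-0.74 ± 0.20, adjusted p = 0.62). With each dose tested alone, 33 genes passed at the high dose and 33 at the low dose, and 18 of the 33 genes called from the averaged doses passed in both.

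**Figure D4:**
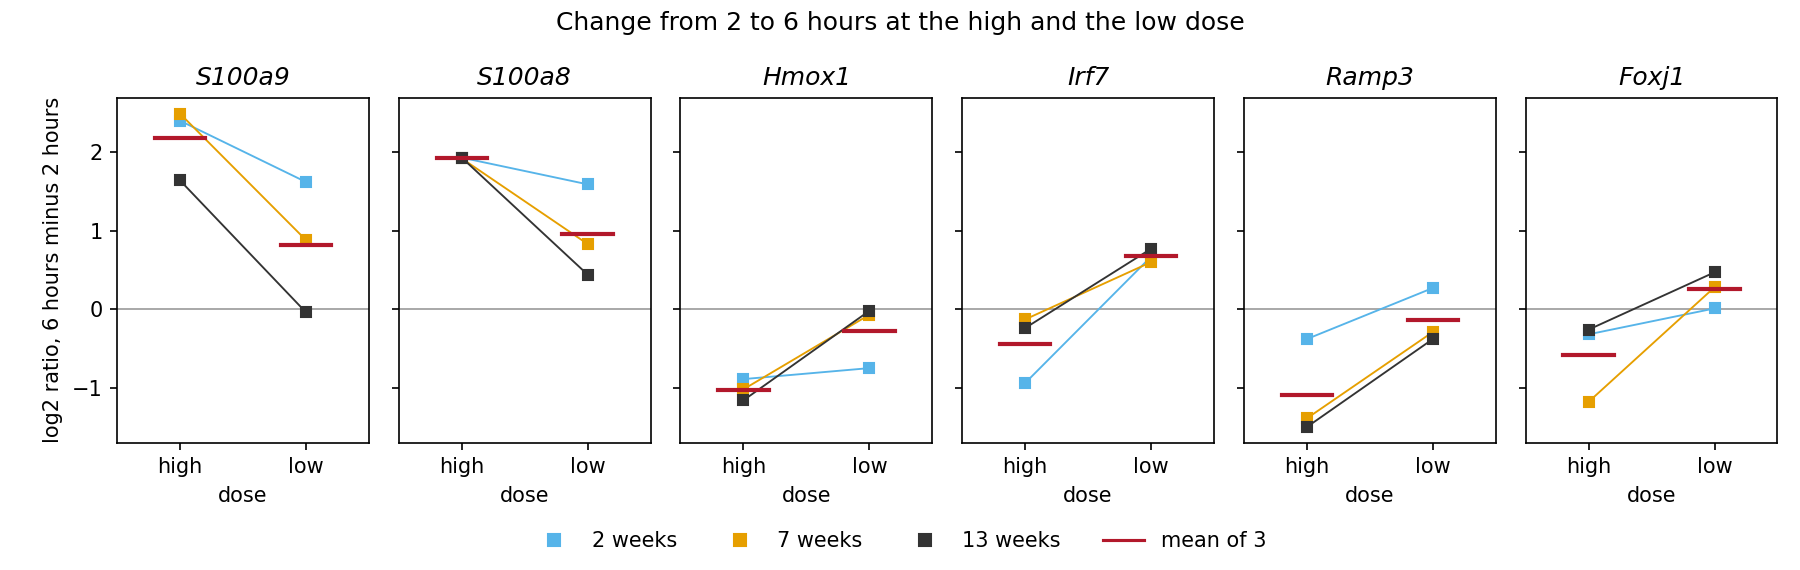
Change from 2 to 6 hours (y axis, log2) at the high and the low dose for 6 genes. Squares joined by lines are the 3 durations and red bars their means. S100a9 lies higher at the high dose at each duration, and Irf7 and Foxj1 lie below 0 at the high dose and above 0 at the low dose.

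The levels at 20 hours are given as a description. The 20 hour level was nearer to that at 2 hours for 18 of the 33 genes (11 falls and 7 rises) and nearer to that at 6 hours for 15. Aldh3a1 stood at 5.33 ± 0.50 at 2 hours, 1.95 ± 0.20 at 6 hours and 0.32 ± 0.10 at 20 hours (SD, n = 3 durations). Cyp1a1 was at 5.74 ± 0.69, 3.94 ± 0.38 and -0.22 ± 0.92 at 2, 6 and 20 hours, and Nqo1 at 2.71 ± 0.15, 1.62 ± 0.05 and 0.30 ± 0.14. In these means the enzymes stood near air at 20 hours, but the mean of Cyp1a1 joined levels on both sides of air. At 2, 7 and 13 weeks it was at -1.09, 0.10 and 0.51 at the high dose and -1.36, -0.10 and 0.62 at the low dose. The clock genes turned back beyond their 2 hour levels. Dbp was at 0.95 ± 0.48, -1.70 ± 0.51 and 2.22 ± 0.35 at 2, 6 and 20 hours, and Bmal1 at -1.19 ± 0.29, 1.18 ± 0.43 and -2.0 ± 0.30. S100a9 was at 0.16 ± 1.52, 1.66 ± 0.95 and 1.04 ± 1.38, with a spread between durations as wide as its differences between times.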

How the data were processed

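Lung RNA ratios of 12 samples, smoke pool over air pool, were compared between 6 and 2 hours after exposure. The authors deposited log2 ratios (1 table of 11994 rows); per the labels, smoke RNA carried Cy5 and air RNA Cy3, each labelled sample was divided over 2 arrays, and the labels mention no dye swap. The sources used here give no scanner, background correction or normalization, and signal over background is unknown. The log base was checked: 100% of 257 values under -1 are the log2 of a ratio with 2 decimals. Repeated rows were merged into 5961 probes, 4780 with a gene symbol, and probes of a gene were averaged. Of 9658 rows with a gene symbol, 9614 matched RefSeq genes of GRCr8 by gene identifier and took the RefSeq symbol. The others kept their own. Tests used limma 3.58.1 in R 4.3.3 (intercept fit of 3 differences, eBayes, two-sided). They were run on simulated data of 3572 genes with known changes, drawn with the spread that the fit estimated. Of changes of 0.5 on the log2 scale 83.9% were recovered, and of larger ones at least 99.9%. False calls averaged 14.15 a run. Python 3.11.15 and matplotlib 3.10.9 drew figures. Replicate spread is that between durations, and p-values measure it over pooled animals. Deviations of the dose means at 6 and 2 hours correlated at 0.08, -0.08 and -0.16 within a duration. Between different durations they correlated at -0.14 to 0.20. The pairing thus comes from the design and not from these values. The comparison, the 30 gene lists and the tests were chosen with earlier results of these data known. Genes named are the 15 largest rises and falls (filled by smallest p), up to 4 called or 2 largest members per list, the dose-dependent genes and a fixed set; other list members were named after their values were seen. Alternatives varied probes, missing values, prior, scaling, pairing, dose and samples left out.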

Additional observations from a re-analysis of the deposited data

Results flagged for a closer look

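In 5 of 176 groups of 6 samples examined (88 named genes at 2 times), 1 sample lay apart from the other 5 by Dixon's criterion, where chance gives about 1 in 20 groups. At 6 hours, the highest value of Tfdp1 was 0.59 in the high-dose 7 week sample, against 0.04 to 0.24 in the others. Gstm5 was lowest in the same sample, at -0.81, against -0.47 to -0.36. Adh1c was highest at 6 hours in the high-dose 2 week sample, at 0.06, against -0.58 to -0.43. At 2 hours, Nppa was highest in the high-dose 2 week sample, at 2.16, against -0.01 to 0.76 in the others. Spon2 was highest at 2 hours in the low-dose 13 week sample, at -1.0, against -1.74 to -1.56.

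The changes at the high and the low dose were set apart for S100a9, Irf7 and Foxj1, and the test of the difference passed for S100a9 alone, with 1.36 more at the high dose than at the low dose (limma adjusted p = 0.044). For Irf7 the changes were -0.94 to -0.13 at the high dose and 0.60 to 0.77 at the low dose, a difference of -1.12 in which every duration had opposite signs (adjusted p = 0.11). For the cilia regulator Foxj1 they were -1.18 to -0.26 at the high dose and 0.01 to 0.47 at the low dose, a difference of -0.84 (adjusted p = 0.62). The differences of Irf7 and Foxj1 did not pass the test, and both genes were picked out for their opposite signs.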

How the results depend on the processing

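Of 3572 genes 33 passed. The count was 74 (29 higher, 45 lower) when the 9 means of all times were fitted with hours and weeks, and 69 (25 higher, 44 lower) when the 6 differences of both doses were fitted with duration as a random block. Each of these held 32 of the 33 genes. It was 34 with no replicate block, that is without pairing by duration, and 25 genes were shared. Over the alternatives that left out 1 duration or 1 sample it ranged from 2 to 43. In the remaining alternatives (probes alone, other rules for missing values, another prior, centring, quantile normalization, a single dose, a fold of at least 1.5) it lay between 24 and 38. The dose dependence count was 1, and 0 with every probe on its own, 0 when 9 differences were fitted with hours and weeks, and 0 to 12 with 1 duration left out. Among the 33 genes that passed, 1 changed sign, Cyp1a1 under quantile normalization (0.32, limma adjusted p = 0.649). That method equalises the highest ranks by construction. The call of Cyp1a1 held in 20 of 25 alternatives. Its lowest limma adjusted p over them was 1.6e-05, with 2 weeks left out, against 0.43 without 7 weeks and 0.25 without 13 weeks. Sign changes of genes that did not pass were not counted. Pools of 4 rats with 1 sample a condition limit the precision, and signal over background is unknown.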

Other observations

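Probes without a gene symbol were outside the gene tests. With every probe tested on its own, 3 of 844 such probes passed limma. Their changes from 2 to 6 hours were -1.28 ± 0.11 (adjusted p = 0.00096), 0.98 ± 0.13 (adjusted p = 0.014) and -0.65 ± 0.11 (adjusted p = 0.037).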
